A study of Mus musculus with 75 samples.

Results

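Of the 75 RNA libraries in the study, 19 came from D2 nuclei of mice that had a saline injection as their last treatment: 10 libraries from mice with repeated cocaine behind them (cocaine then saline, CS) and 9 from mice that only ever had saline (saline then saline, SS). They were chosen by their sample names alone, as every library of those 2 groups in the D2 line. All animals were male offspring of LSL-eGFP::L10a reporter mice and D2-Cre mice, so that Cre recombinase driven from the Drd2 gene's regulatory sequence opens a green fluorescent ribosomal protein tag, and SS and CS animals carried the same alleles. Saline or cocaine at 20 mg/kg was injected into the abdomen daily for 10 days, 30 days in the home cage followed, and the nucleus accumbens was punched out 1 h after the saline challenge. Green nuclei were sorted from the frozen tissue, and RNA left in the nuclei was sequenced with a total RNA kit made for very small inputs. The comparison of CS with SS asks what differs in these nuclei after 30 days of withdrawal, with no cocaine given before tissue was taken. The 2 other D2 groups had a cocaine challenge after saline (SC, 9 libraries) or after cocaine (CC, 10 libraries). They served here to estimate the spread and for further contrasts set beside CS minus SS. As a model the line covers whatever nuclei express D2-Cre. The labels do not say whether each library is 1 animal or a pool, so the p-values measure the spread between these libraries.

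The nucleus accumbens is the ventral part of the striatum, and most of its neurons are medium spiny neurons. One class carries the dopamine D2 receptor (Drd2), an adenosine receptor (Adora2a) and the enkephalin precursor (Penk), and the other carries the D1 receptor (Drd1), substance P (Tac1) and dynorphin (Pdyn). Dopamine lowers cAMP in the first class through D2 receptors, and cocaine raises extracellular dopamine by blocking its reuptake. Withdrawal from repeated cocaine is known for lasting changes in accumbens synapses and chromatin, and immediate early genes such as Fos, Egr1 and Arc are used as a readout of recent neuronal activity.

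Library size was far more uneven in CS than in SS. The 9 SS libraries held 5331227 to 17808952 counts. The 10 CS libraries ran from 19980 counts in CS 9 and 26297 in CS 6, through 1367040 in CS 4 and 2414150 in CS 3, to 34870414 in CS 8. Mean log10 total count was 6.34 ± 1.12 (SD, n = 10) in CS and 7.09 ± 0.205 (SD, n = 9) in SS, a difference of -0.75 (exact permutation test, two-sided, p = 0.0417, adjusted p = 0.25 over 6 library measures). A quality rule on depth, detected genes, receptor ratio and correlation with the other D2 libraries was failed by CS 2, CS 3, CS 4, CS 6 and CS 9, so 5 of 10 CS libraries, and by 0 of 9 SS libraries. CS 2 failed on depth alone, with 4463264 counts where CS 5 passed with 4866598, and the others failed on depth and correlation. SS 9 passed with a median correlation of 0.790, beside 0.763 in CS 3 and 0.771 in CS 4. In CS 6, 1 count is worth 38.03 CPM (counts per 1000000 counts of that library) and in CS 9 it is worth 50.1 CPM. Ranges of CPM below therefore cover the 8 CS libraries above 1000000 counts and all 9 SS libraries, while the tests used every library unless stated. Among the 8, CS 4 is the shallowest: 1 count is worth 0.732 CPM there and 3 counts 2.19 CPM. Where CS 4 sets the low end of a CS range under 2.19 CPM, that end is not resolved.

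The share of counts that can be put down to even background over the genome was estimated from 1433 olfactory and vomeronasal receptor genes that neurons keep silent. It was 34.8% ± 20.1 (SD, n = 10) in CS and 43.9% ± 17.1 (SD, n = 9) in SS (exact permutation p = 0.301, adjusted p = 0.452). The lowest share was 5.37% in SS 9, and the highest was 62.7% in CS 10. Ribosomal protein genes took 0.130% ± 0.0696 (SD, n = 10) of the counts in CS and 0.181% ± 0.0923 (SD, n = 9) in SS (exact permutation p = 0.193, adjusted p = 0.452), and the mitochondrial genome's genes took 0.212% ± 0.154 (SD, n = 10) and 0.326% ± 0.551 (SD, n = 9) (exact permutation p = 0.798, adjusted p = 0.952). Genes longer than 100 kb took 51.5% ± 3.61 (SD, n = 10) and 51.4% ± 4.52 (SD, n = 9) (exact permutation p = 0.952, adjusted p = 0.952). None of these 4 shares differed beyond the spread between libraries.

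**Figure D1:**
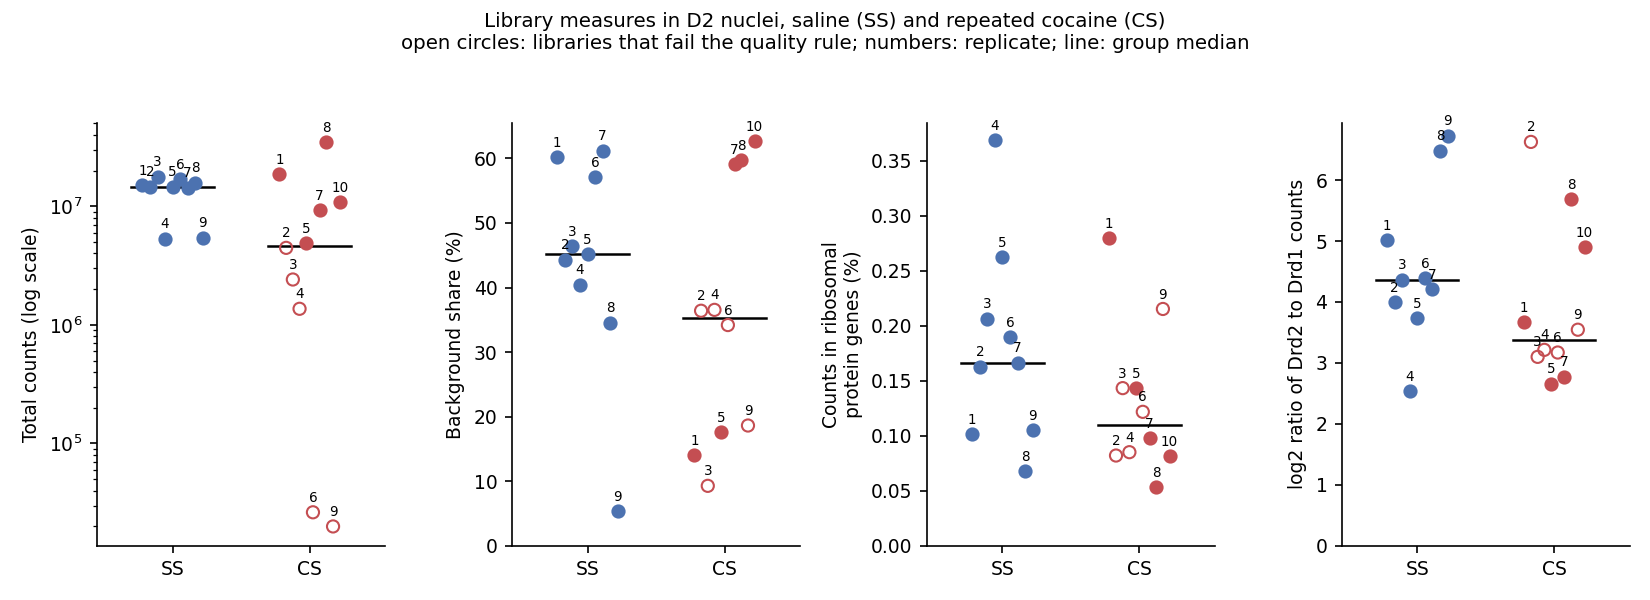
Total counts (log axis), background share, share of counts in ribosomal protein genes and log2 ratio of Drd2 to Drd1 counts, each point 1 library with its replicate number and the line the group median. The 5 libraries that fail the quality rule, drawn open, are all CS, and the CS totals span 19980 to 34870414 counts where the SS totals span 5331227 to 17808952.

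Drd2 exceeded Drd1 in all 19 libraries, with a log2 ratio of their counts between 2.66 and 6.63 in CS and between 2.53 and 6.73 in SS, and the group means of 3.93 ± 1.34 (SD, n = 10) and 4.60 ± 1.32 (SD, n = 9) did not differ beyond their spread (exact permutation p = 0.285, adjusted p = 0.452). The ratio alone does not mark a D2 library, since the highest value among the D1-line libraries was 4.35. Drd2 itself was measured at 220 to 1184 CPM in CS (median 503) and at 265 to 2177 CPM in SS (median 677). SS 9 lay far above the rest of its group, and the groups overlapped over most of their range. The fitted log2 change of Drd2, CS minus SS, was -0.54 ± 0.48 (SE; edgeR quasi-likelihood test, Benjamini-Hochberg adjusted p = 1).

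Penk showed how uneven the CS libraries were. Its level was 111 to 2998 CPM in CS (median 307) and 320 to 1313 CPM in SS (median 786). CS 1 alone stood above the SS range, CS 10 and CS 3 lay within it, and the other 5 CS libraries lay below its lowest value. The fitted log2 change was 0.05 ± 0.47 (SE, adjusted p = 1), -0.17 with RLE scaling, and -1.27 when the failing libraries and CS 1 were left out. That last set of libraries, used again below, was chosen after the data were seen. CS 1 was the highest CS library for Penk, so leaving it out lowers the CS mean by construction. Adora2a followed the same pattern, with 42.1 to 469 CPM in CS (median 79.7) against 61.3 to 186 CPM in SS (median 150), CS 1 highest and CS 3 second at 222 CPM, and a fitted log2 change of 0.36 ± 0.44 (SE, adjusted p = 1), which went to -1.02 without the failing libraries and CS 1. All 6 D2 neuron markers measured were above their SS median in CS 1, whereas none of the 6 was in CS 5, CS 7, CS 8 or CS 10. Summed over the 6 genes, the CS libraries held 421 to 4927 CPM (median 1092) and the SS libraries 818 to 2941 CPM (median 2058). Markers of the D1 class gave 0 passing genes (8 of 9 above 0, median 0.64, 3 at an unadjusted p under 0.05). Pdyn was at 7.32 to 79.1 CPM in CS (median 31.7) and 8.82 to 44.3 CPM in SS (median 21.1), with CS 3, CS 1, CS 7 and CS 5 above the SS range (1.00 ± 0.39, SE, adjusted p = 0.583), and the muscarinic receptor gene Chrm4 was at 3.44 to 45.6 CPM in CS and 4.23 to 15.8 CPM in SS, with CS 3, CS 1 and CS 5 above the SS range (1.21 ± 0.48, SE, adjusted p = 0.609). In bulk RNA, fewer cells of a type and less RNA per cell cannot be told apart.

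Across the genome, 31 of 36090 genes tested passed at an adjusted p under 0.05 in the fit on all 38 D2 libraries, 0.0859% of the genes, and all 31 were higher in CS (0.0859% higher, 0 lower). At an unadjusted p under 0.05 there were 1811 genes, 5.02%. Of the 31, 15 were protein coding, and the other 16 were pseudogenes, antisense and other noncoding transcripts or unclassified models. Their median log2 change was 4.05, beside -0.03 over all genes.

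Hoxc12, a homeobox gene of the Hoxc cluster that patterns the caudal body axis (ENSMUSG00000050328.2, mm10 chromosome 15, 102936757 to 102938609, plus strand), was the highest. Its level was 0 to 321 CPM in CS (median 0.565) and 0 to 0.799 CPM in SS (median 0.274), and its log2 change was 7.17 ± 1.15 (SE, adjusted p = 0.00498). All but 2 of the CS libraries lay within the SS range: CS 4 held 439 counts of the gene and the next library, CS 3, was at 5.80 CPM. The neighbouring Hoxc13 (ENSMUSG00000001655.6, chromosome 15, 102921103 to 102928814, plus strand) had 339 CPM in CS 4, 464 counts, against at most 4.03 CPM in every other library above 1000000 counts (log2 change 4.94 ± 0.92, SE, adjusted p = 0.0132). Of the other genes of the cluster, Hoxc9 was also above every SS library in CS 4, at 16.8 CPM from 23 counts against an SS maximum of 3.04 CPM. Hoxc5 was at 27.1 CPM, within the SS range (maximum 27.7 CPM), and Hoxc11, Hoxc10 and Hoxc8 were at 0 counts, which allows up to 3 counts or 2.19 CPM.

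The same library led most of the list. Wfdc18, a secreted whey acidic protein-type gene (ENSMUSG00000000983.13, chromosome 11, 83709015 to 83711348, plus strand), was at 656 CPM in CS 4, at 0 to 2.26 CPM in the other CS libraries above 1000000 counts and at 0 to 1.67 CPM in SS (log2 change 6.77 ± 1.13, SE, adjusted p = 0.00564). C1ql4, a C1q-like secreted synaptic organizer, was at 254 CPM in CS 4 and at most 3.23 CPM elsewhere (4.96 ± 0.97, SE, adjusted p = 0.0217). Hoxa7, a homeobox gene of another cluster, was at 263 CPM in CS 4 and at most 4.62 CPM elsewhere (4.15 ± 0.83, SE, adjusted p = 0.0254).

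Other genes of that library were the pseudogene Rpl5-ps1 at 241 CPM (log2 change 5.15 ± 0.94, SE, adjusted p = 0.0111), the noncoding Unc45bos at 189 CPM (4.92 ± 0.95, SE, adjusted p = 0.0209) and the membrane-spanning Ms4a14 at 474 CPM (4.08 ± 0.88, SE, adjusted p = 0.042, and -0.10 without CS 4). Rpl5-ps1 shares sequence with Rpl5 and its copies, so the split of reads between them is uncertain. Unc45bos lies on the opposite strand of Unc45b, and since the strand setting of the counting is not known, reads of the 2 genes cannot be told apart. Cox7a1, the heart and muscle form of a cytochrome c oxidase subunit, was at 98.0 CPM in CS 4 and at most 2.06 CPM elsewhere (4.01 ± 0.82, SE, adjusted p = 0.0268), and was the one passing gene among 80 respiratory chain genes tested.

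CS 3 and CS 6 led the remainder. Ly6a, a surface antigen of endothelial and stem cells (ENSMUSG00000075602.10, chromosome 15, 74994877 to 74998031, minus strand), was at 155 CPM in CS 3, at 0 to 4.93 CPM in the other CS libraries above 1000000 counts and at 0 to 5.06 CPM in SS (4.29 ± 0.84, SE, adjusted p = 0.0217). Plcd3, a phosphoinositide-specific phospholipase (ENSMUSG00000020937.14, chromosome 11, 103070304 to 103101658, minus strand), had 342 of the 26297 counts of CS 6, which is 13005 CPM (95% Wilson interval 11705 to 14448 CPM, counting error only), against 1.24 to 17.9 CPM in the other CS libraries above 1000000 counts and 6.43 to 19.9 CPM in SS. Its log2 change was 6.15 ± 1.12 (SE, adjusted p = 0.0111), and 0.10 (adjusted p = 1) once the D2 libraries under 1000000 counts (CS 6, CS 9 and CC 10) were left out.

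Each of the 31 genes had its highest CPM in 1 of 3 CS libraries that failed the quality rule: 22 in CS 4, 7 in CS 3 and 2 in CS 6. In 24 of them the top value was over 10 times the next among libraries above 1000000 counts. Outside the list too, single genes stood out in these libraries. The search took 25756 genes averaging at least 1 on the log2 CPM scale, an average that a high value in 1 library can itself raise. Among them, genes of the list included, 138 were at least 10 times higher in CS 4 than in any other library above 1000000 counts. The number was 32 in CS 3, against 1 in SS 3 and 0 in the other 14. The same 2 libraries held 0 counts for 20.9% and 19.2% of these genes, against at most 7.43% in the SS libraries, where that highest share was that of SS 9.

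**Figure D2:**
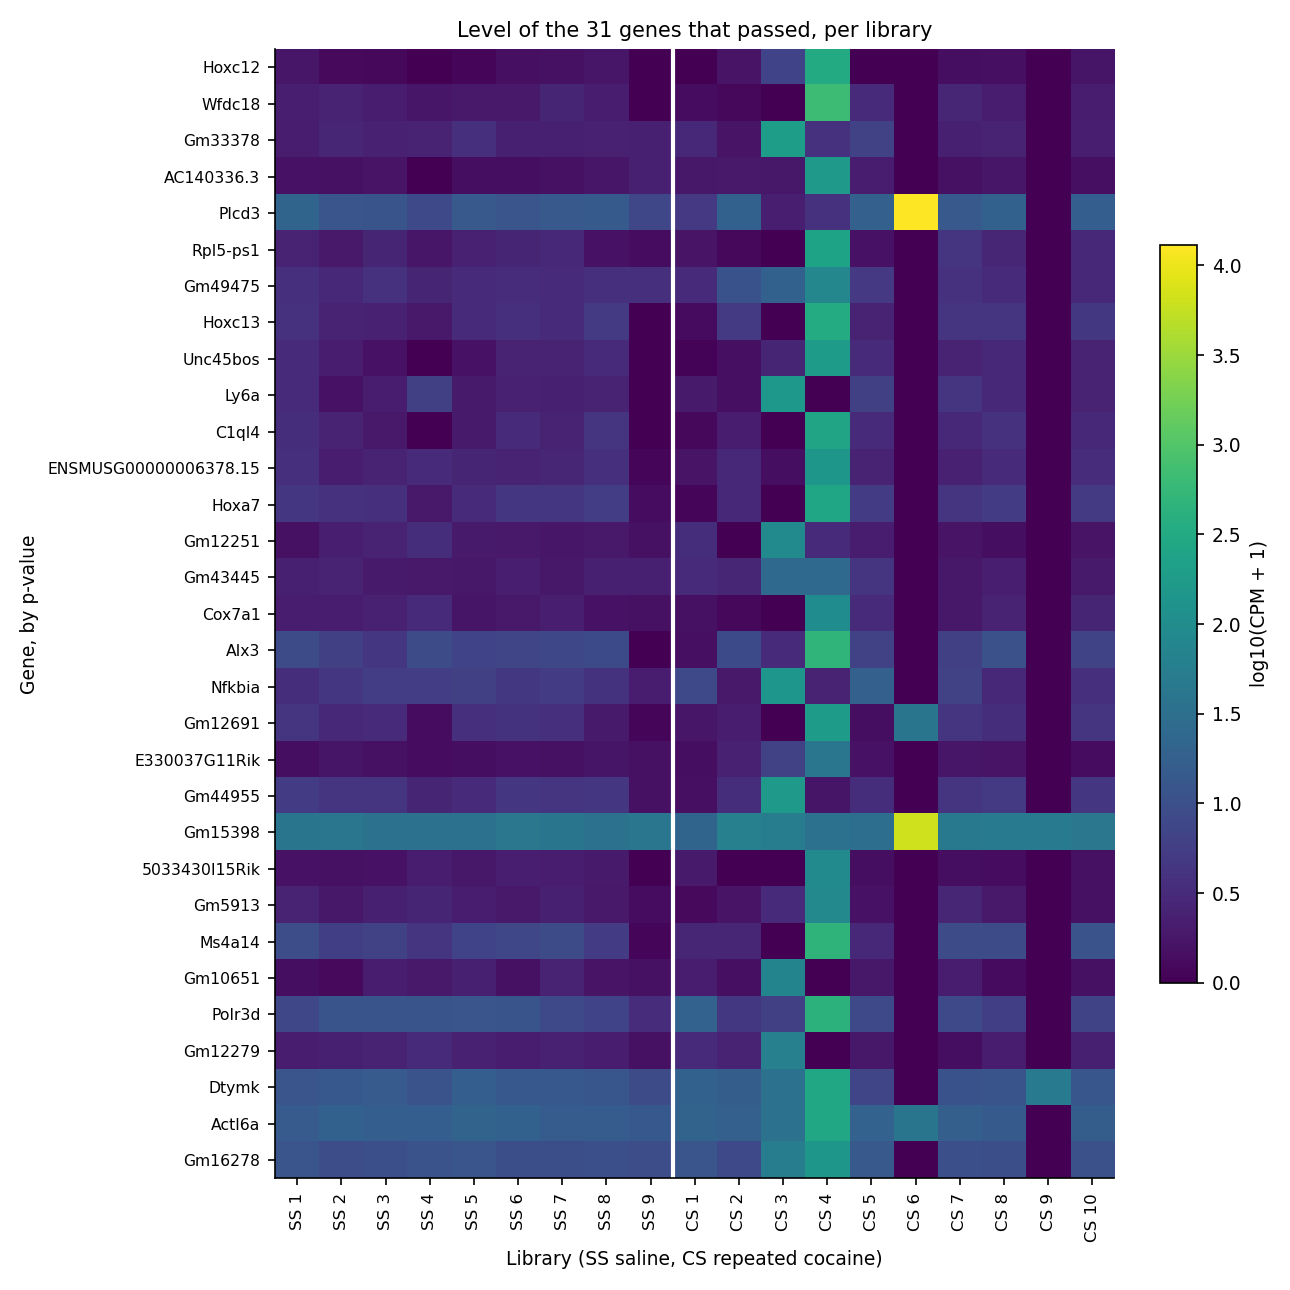
Level of the 31 genes that passed, as log10(CPM + 1), in each SS and CS library, with genes ordered by p-value. The bright cells fall in the CS 4 column for 22 genes, in CS 3 for 7 and in CS 6 for 2. Most cells of CS 6 and CS 9 are at 0 counts.

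Leaving out the failing libraries (5 of them CS) left 0 of 38669 genes past the threshold, 0%, with 582 genes (1.51%) at an unadjusted p under 0.05. The 31 genes then had a median log2 change of 0.27, beside 0.10 over all genes: 25 were above 0 and 6 below, and Hoxc12 went to -0.15 ± 0.54 (SE, adjusted p = 1). The highest of them was Nfkbia, the inhibitor of the NF-kappaB transcription factors, at 1.23 (picked out here after its values were seen). Without the D2 libraries under 1000000 counts alone (CS 6, CS 9 and CC 10), 20 genes passed. In the separate contrast of cocaine history before a cocaine challenge (CC minus SC), which shares no library with CS minus SS, 0 of 36090 genes passed (0%; 1192 at an unadjusted p under 0.05; 0 by DESeq2) and the 31 genes had a median log2 change of 0.10.

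**Figure D3:**
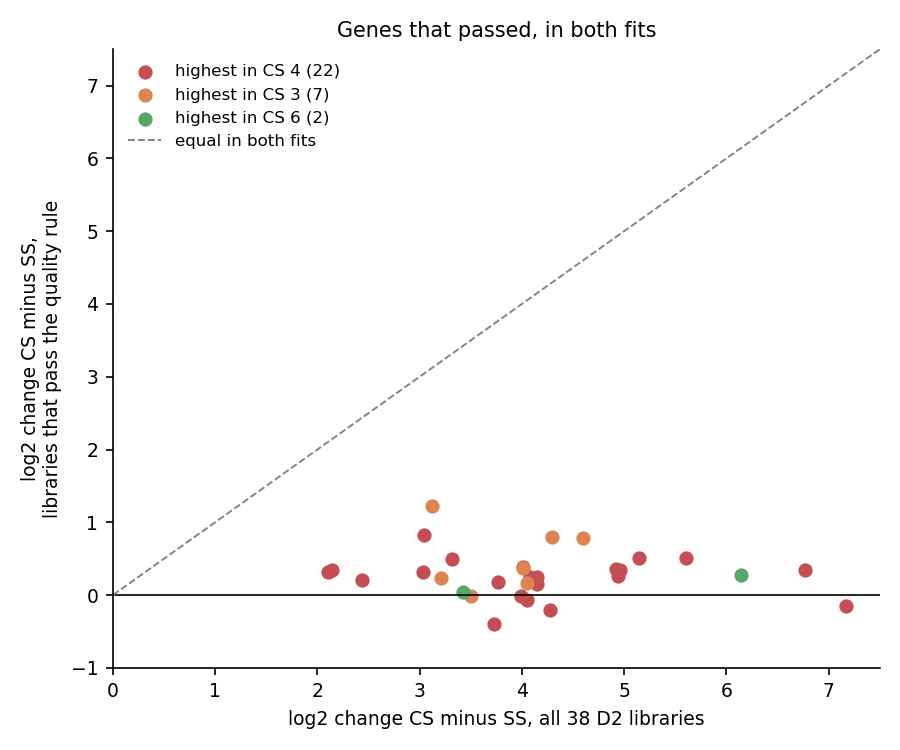
Log2 change of CS minus SS for the 31 genes in the fit on all 38 D2 libraries (x axis) and without the libraries that fail the quality rule (y axis), coloured by the library with the highest level. All points lie far under the dashed line of equal values, between 2.10 and 7.17 on the x axis and with a highest value of 1.23 on the y axis.

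Levels that separated the 2 groups cleanly were almost absent. Of 36090 genes, 0 (0%) had all 8 CS libraries above 1000000 counts higher than all 9 SS libraries in CPM, and 1 (0.00277%), the gene model Gm43072, had all of them lower, at 0 to 0.696 CPM in CS and 0.697 to 0.842 CPM in SS (log2 change -0.55 ± 0.39, SE, adjusted p = 1). For Gm43072, CS 4 could lie below the SS range only at 0 counts, since 1 count is worth 0.732 CPM in that library. A value of 0 there allows up to 3 counts or 2.19 CPM, so the separation is not resolved in CS 4. After scaling by edgeR's TMM factors, 0 were above and 1 was below. That gene was Sec61b, a subunit of the channel that threads proteins into the endoplasmic reticulum, at 0 to 7.28 scaled CPM in CS and 7.33 to 14.0 in SS (log2 change -0.81 ± 0.31, SE, adjusted p = 0.52). Both were picked out here after their values were seen.

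Immediate early genes answer synaptic activity within the hour, and in edgeR none passed. Of 21 rapid immediate early genes, 20 could be tested, 17 were above 0, their median log2 change was 0.55 beside -0.03 over all genes, and 0 passed (4 at an unadjusted p under 0.05). Egr1, a zinc finger transcription factor, was at 21.8 to 180 CPM in CS (median 48.8) and 20.3 to 74.8 CPM in SS (median 43.3). CS 1 at 180 CPM and CS 3 at 177 CPM lay above every SS library and the other 6 CS libraries lay within the SS range. Its log2 change was 1.01 ± 0.44 (SE, adjusted p = 0.781).

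Arc, a postsynaptic protein that takes part in AMPA receptor removal, was at 8.78 to 72.8 CPM in CS (median 15.2) and 3.75 to 26.7 CPM in SS (median 17.4), with CS 1 and CS 3 above the SS range, and a log2 change of 0.77 ± 0.42 (SE, adjusted p = 1). Npas4, an activity-dependent transcription factor, was at 5.85 to 36.9 CPM in CS (median 10.9) and 4.31 to 19.4 CPM in SS (median 15.3), with CS 1 alone above the SS range (0.17 ± 0.35, SE, adjusted p = 1). For both genes the CS median lay below the SS median. Fos and Fosb, partners in the AP-1 transcription factor, each had 1 CS library far above the others: 40.2 CPM of Fos in CS 4, where its SS libraries reached 9.05 CPM, and 35.6 CPM of Fosb in CS 3, where its SS libraries reached 7.20 CPM. Also above the SS range were CS 1 for Fos (11.7 CPM), and CS 5 (10.9 CPM) and CS 1 (10.7 CPM) for Fosb. The log2 changes of Fos and Fosb were 1.11 ± 0.44 (SE, adjusted p = 0.615) and 1.17 ± 0.40 (SE, adjusted p = 0.371).

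Klf2, a Krüppel-like factor strong in endothelial cells, came nearest to the threshold (log2 change 2.93 ± 0.66, SE, adjusted p = 0.051), with 0 to 21.1 CPM in CS (CS 3 highest, CS 5 next at 8.01 CPM) and 0 to 2.09 CPM in SS. Its median was 1.79 CPM in CS and 0.823 CPM in SS. CS 1 had the highest level of 12 of the 21 rapid early genes, and its summed level of 744 CPM compared with 206 to 426 CPM in the other CS libraries above 1000000 counts and 192 to 363 CPM in SS. Without the failing libraries all 21 genes were above 0, with a median of 0.77 beside 0.10 over all genes and 0 passing (7 at an unadjusted p under 0.05). With CS 1 left out as well, 10 were above 0 and 11 below, with a median of -0.05 beside 0.07 over all genes. That set of libraries was chosen after the data were seen. limma with library weights, described with the ribosomal protein genes, had 9 above 0 and 11 below (median -0.15 beside 0.10 over all genes). In that fit 1 early gene passed higher and 2 lower, where 11.5% of all genes passed (9.24% lower). By library, 17 of the 21 genes were above their SS median in CS 1, 13 in CS 7, 12 in CS 5 and between 5 and 10 in the other 5 CS libraries above 1000000 counts.

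**Figure D4:**
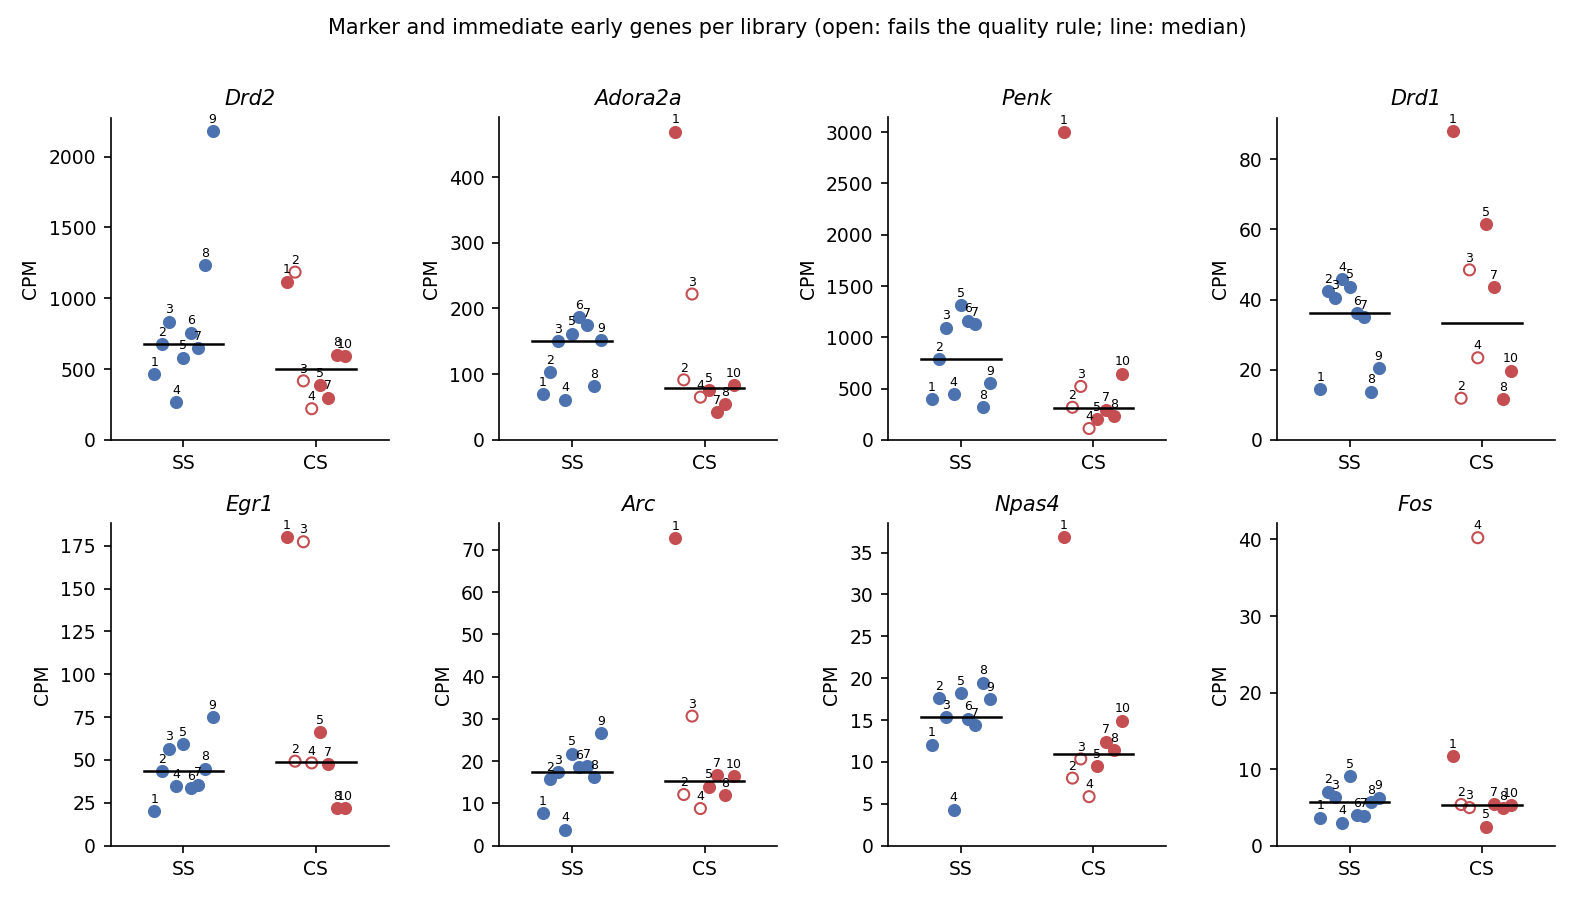
CPM of 4 marker genes and 4 immediate early genes in each library above 1000000 counts, with replicate numbers and the group median as a line, and libraries that fail the quality rule drawn open. CS 1 is the highest point for Adora2a, Penk, Drd1, Egr1, Arc and Npas4, while the CS median lies below the SS median for all of the 8 genes but Egr1.

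Genes induced later by activity stood at a median of 0.23 (14 of 18 above 0, 0 passing). Pcsk1, a prohormone-cleaving protease, was at 154 CPM in CS 4, at 26.7 to 45.6 CPM in the other CS libraries above 1000000 counts and at 19.5 to 32.0 CPM in SS (1.03 ± 0.35, SE, adjusted p = 0.343). Of 11 feedback regulators of MAP kinase signalling, 9 were above 0 (median 0.29, 0 passing), among them the ERK phosphatase Dusp6 at 0.732 to 44.3 CPM in CS and 5.60 to 10.1 CPM in SS (1.18 ± 0.46, SE, adjusted p = 0.566), with CS 3, CS 1 and CS 5 above the SS range. The lowest of these CS values was 1 count in CS 4.

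Ribosomal protein and respiratory chain genes, the housekeeping machinery of protein synthesis and oxidative phosphorylation, lay lower in most CS libraries and higher in CS 1. Summed over 88 ribosomal protein genes, CS libraries held 531 to 2794 CPM (median 914) and SS libraries 675 to 3688 CPM (median 1664). In CS 1, 81 of the 88 genes were above their SS median, and in the other 7 CS libraries above 1000000 counts between 4 and 24 were. For 82 respiratory chain genes the count was 74 in CS 1 and between 3 and 25 in the other 7. The edgeR fit on all D2 libraries gave a median log2 change of -0.37 for 86 ribosomal protein genes (10 above 0, 76 below, 0 passing) and of -0.13 for 80 respiratory chain genes (24 above 0, 56 below, 1 passing, Cox7a1). Without the failing libraries the medians were -0.04 (36 above 0, 50 below) and 0.12 (64 above 0, 18 below), and without CS 1 as well they were -0.95 and -0.66, with 0 genes of either list passing in these fits. Leaving out CS 1 was a choice made after the data were seen. The fit with background share as a covariate also left out the libraries under 1000000 counts. Its medians were -0.74 (2 above 0, 84 below) and -0.38, against -0.28 and -0.07 on the same libraries without the covariate. With RLE scaling the medians were -0.64 and -0.33, beside -0.13 over all genes.

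The values of these lists thus differed between fits. limma, which gives each library a weight from its own scatter, put 85.8% of the weight of the 10 CS libraries on CS 10, CS 8 and CS 7, and the weight of CS 1 was 0.104 where that of CS 10 was 4.73. In that fit 4155 of 36090 genes passed (11.5%), 3333 of them lower in CS (9.24%) and 822 higher. All but 6 of the 86 ribosomal protein genes tested passed on the lower side (80; median -1.42), as did 68 of 80 respiratory chain genes (median -0.96), 8 of 15 heat shock genes (median -0.80) and 10 of 25 synaptic vesicle fusion genes. Rpl35, a protein of the large ribosomal subunit, was at 0 to 12.4 CPM in CS (median 3.67) and 3.04 to 20.1 CPM in SS (median 8.99), with CS 1 highest in its group. Its log2 change was -1.48 in limma (adjusted p = 7.92e-06) and -0.89 ± 0.41 in edgeR (SE, adjusted p = 0.868).

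Of the D2 and D1 markers, 4 of each also passed on the lower side in limma, with Penk at -1.39 (adjusted p = 0.00816), Adora2a at -1.14 (adjusted p = 0.00459), Drd1 at -0.97 (adjusted p = 0.00741) and Tac1 at -0.84 (adjusted p = 0.0106). The edgeR fit had put Drd1 at 0.56 ± 0.41 (SE, adjusted p = 1) and Tac1 at 0.64 ± 0.36 (SE, adjusted p = 1). Of the 3333 genes lower in limma, 1332 were below 0 in the edgeR fit on all D2 libraries, 391 without the failing libraries, and 3252 when CS 1 was also left out. Only 2 of the 3333 passed in the first of these edgeR fits, both on the higher side, and 0 in the other 2 fits. The 3 CS libraries that carry the weight had background shares of 59.1% to 62.7%, at the top of the 5.37% to 61.2% seen in SS, and background share was tested as a covariate in edgeR, not in limma. The covariate fit also left out the libraries under 1000000 counts. In it 5 genes passed, against 20 on the same libraries without the covariate. The median of the 6 D2 markers was -0.24 with the covariate and 0.56 without it.

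**Figure D5:**
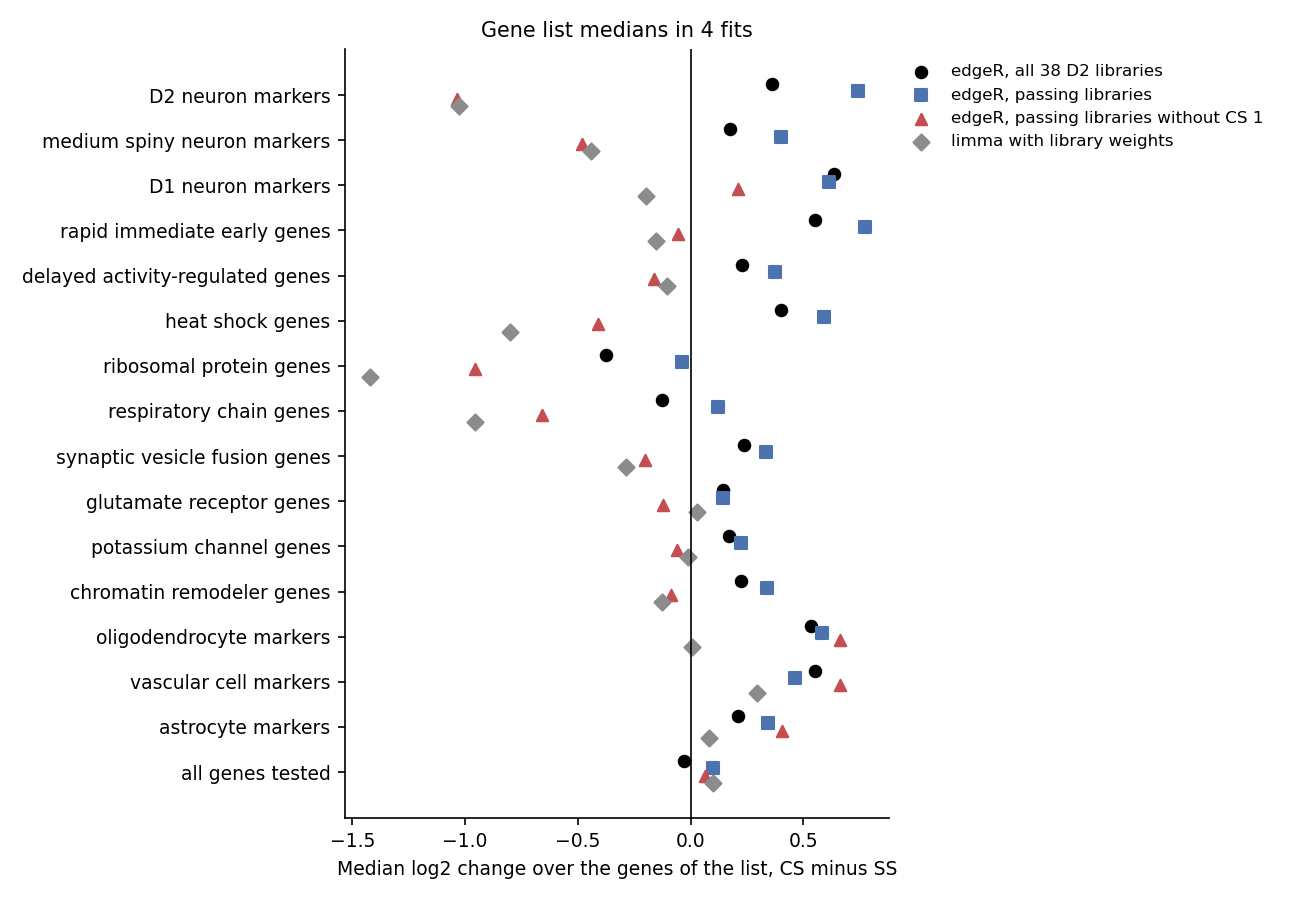
Median log2 change of CS minus SS over the genes of 15 lists and over all genes tested, in 4 fits. The medians of neuron markers, early genes and heat shock genes lie above 0 in the first 2 fits and at or below 0 once CS 1 is left out or given little weight, except D1 markers without CS 1, and ribosomal protein genes go from -0.04 to -1.42.

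The synaptic, channel and chromatin genes for which cocaine withdrawal is often studied gave 0 passing genes in edgeR. Among 53 enzymes that modify histones or methylate DNA, 45 were above 0 (median 0.21), of 30 chromatin remodelers 28 (0.23), of 25 glutamate receptor genes 20 (0.14), of 41 potassium channel genes 29 (0.17), of 18 postsynaptic scaffold genes 16 (0.22) and of 27 dopamine and cAMP signalling genes 19 (0.15), all beside -0.03 over all genes. Without the failing libraries and CS 1 all 6 medians lay below 0, between -0.25 and -0.06, beside 0.07 over all genes, and 17 of the 53 enzymes, 8 of the 30 remodelers and 6 of the 27 dopamine and cAMP genes were above 0. That set of libraries was chosen after the data were seen. In limma 8 of the 53 enzymes and 7 of the 27 dopamine and cAMP genes passed on the lower side, where 9.24% of all genes did. None of either list passed on the higher side. The genes named from these lists had their highest level in CS 4. Kmt2b, a histone H3 lysine methyltransferase, was at 719 CPM in CS 4, at 13.4 to 53.6 CPM in the other CS libraries above 1000000 counts and at 22.6 to 36.6 CPM in SS (2.38 ± 0.56, SE, adjusted p = 0.0586).

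The A-type potassium channel Kcnd1 was at 94.4 CPM in CS 4 and at most 9.26 CPM in SS (2.01 ± 0.47, SE, adjusted p = 0.0596), the leak channel Kcnk3 at 247 CPM and at most 27.6 CPM (1.72 ± 0.42, SE, adjusted p = 0.0687), and the NMDA receptor subunit Grin2c at 169 CPM and at most 13.1 CPM (2.38 ± 0.61, SE, adjusted p = 0.0833). For Kcnd1 a second CS library reached 37.3 CPM. Without the failing libraries these 4 genes had log2 changes between 0.23 and 0.50. Chd5, a neuronal chromatin remodeler, was at 48.2 to 212 CPM in CS (median 73.2) and 41.6 to 73.5 CPM in SS (median 49.6) (1.11 ± 0.34, SE, adjusted p = 0.207), with CS 4, CS 3 at 198 CPM, CS 5 and CS 1 above the SS range. The actin regulator Limk1 was at 12.7 to 108 CPM in CS and 10.3 to 22.9 CPM in SS (1.32 ± 0.36, SE, adjusted p = 0.12), with CS 4, CS 3 at 56.3 CPM and CS 5 above the SS range.

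Glial markers were uneven among libraries of both groups. Oligodendrocyte markers summed to 222 to 1878 CPM in CS (median 426) and 119 to 1400 CPM in SS (median 281), and astrocyte markers to 690 to 2556 CPM (median 979) and 664 to 1443 CPM (median 760). CS 3, CS 4, CS 5 and CS 7 and, in the control group, SS 4 had the high sums for both lists. Gene by gene, CS 4 had only 4 of 12 oligodendrocyte markers and 5 of 11 astrocyte markers above their SS median. In CS 3, CS 5 and CS 7, 9 to 12 and 8 to 10 were. Of 12 oligodendrocyte markers 11 were above 0 in the edgeR fit (median 0.53), of 6 precursor markers 6 (0.49), of 11 astrocyte markers 10 (0.21) and of 10 vascular markers 8 (0.55), with 0 passing in any of the 4 lists. Slc1a2, the main astrocyte glutamate transporter, was at 91.0 to 1539 CPM in CS (median 282) and 66.5 to 619 CPM in SS (median 123), with CS 3 highest and CS 5 next at 656 CPM (1.62 ± 0.55, SE, adjusted p = 0.348). In CS 3, CS 4, CS 5, CS 7 and SS 4 its CPM exceeded that of Drd2.

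Olig2, a transcription factor of the oligodendrocyte lineage, was at 54.3 CPM in CS 3, at 0.732 to 14.2 CPM in the other CS libraries above 1000000 counts and at 0.184 to 8.25 CPM in SS (2.41 ± 0.60, SE, adjusted p = 0.0745). Its lowest CS value was 1 count in CS 4. Mobp, a myelin protein gene, was at 8.56 to 100.1 CPM in CS (median 43.6) and 3.86 to 67.0 CPM in SS (median 21.5) (1.22 ± 0.49, SE, adjusted p = 0.653). Cldn5, a tight junction protein of endothelial cells, was at 0 to 11.9 CPM in CS, with CS 5 and CS 7 above the SS maximum of 2.81 CPM (2.10 ± 0.71, SE, adjusted p = 0.345). No oligodendrocyte or astrocyte marker was at 0 in every library of a group. Of 11 microglial markers 6 were above 0 (median 0.09). The part of glial RNA in the neuronal results was not tested.

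Ttr, the transthyretin gene of the choroid plexus, had a single high library in the controls, with 188 CPM in SS 3, at most 5.63 CPM in the other SS libraries and at most 11.4 CPM in CS, and a log2 change of -2.57 ± 0.86 (SE, adjusted p = 0.331). Among the mitochondrial genome's genes, mt-Co2, a cytochrome c oxidase subunit, was at 30.4 CPM in CS 7 and 8.02 CPM in CS 10 but at most 1.85 CPM in the other CS libraries above 1000000 counts, and reached 9.57 CPM in SS 4 (1.78 ± 0.78, SE, adjusted p = 0.779). Nuclear copies of mitochondrial sequence can share reads with these genes, so their values are uncertain.

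Whether D2 nuclei differed from D1 nuclei in this comparison was tested as an interaction over all 75 libraries, with 8 CS and 10 SS libraries on the D1 side. On that side CS 4 failed the quality rule on receptor ratio, with 465 CPM of Drd2 against 42.2 CPM of Drd1, and CS 7 failed on depth. The interaction gave 35 of 39250 genes (0.0892%), all with the larger change in D2, and 22 of them were among the 31 (71.0% of the 31, 62.9% of the 35). The leading genes were again Hoxc12 (difference of log2 changes 7.21 ± 1.19, SE, adjusted p = 0.00133), Wfdc18 (6.72 ± 1.13, SE, adjusted p = 0.00133) and Plcd3 (6.23 ± 1.07, SE, adjusted p = 0.00175). Of the 35, 21 had their highest level in D2 CS 4, 8 in D2 CS 3 and 1 in D2 CS 6, while 4 were led by D2 CS 7 and 1 by D2 CS 2. Without the libraries that fail the quality rule 0 of 40533 genes passed (1545 at an unadjusted p under 0.05).

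The other contrasts gave no gene past the threshold in edgeR. CS minus SS in D1 nuclei had 0 of 39250 (0%; 1413 at an unadjusted p under 0.05). In D2 nuclei, SC minus SS had 0 of 36090 (0%; 1914) and CC minus SS had 0 (0%; 380), both of which share the SS libraries with CS minus SS. Among the 20 rapid early genes tested in D2 nuclei the median log2 change was 0.28 for SC minus SS and 0.23 for CC minus SS, beside 0.55 for CS minus SS, and for CC minus SC, with no shared library, it was -0.09. No other tool was run on the first 3 of these contrasts.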

How the data were processed

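RNA from sorted nucleus accumbens nuclei was measured in 75 libraries. The deposited table holds a whole-number count per gene and library for 55401 gene identifiers, with an FPKM table from the authors that was not used. Per the submitters' processing notes, featureCounts and DESeq2 were used on mm10; the aligner, strand setting and versions are not given in the sources used here. All 54271 gene lengths compared equal the full gene span of GENCODE M21 within 1 base, so intronic reads are within the counted span. Every count column matched 1 sample (0 of no sample).

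Counts were tested with edgeR 4.0.16 (quasi-likelihood, TMM scaling, filterByExpr, Benjamini-Hochberg over all genes tested, threshold 0.05) in R 4.3.3. The D2 fit held 38 libraries of 4 groups without covariates, and the interaction fit 75 libraries. Standard errors (SE) are the log2 change over the root of the F statistic. CPM are counts divided by the library's total times 1000000, unscaled unless stated. Library totals are given in the report, and the counting intervals cover counting error only, since reads without molecular identifiers are not independent molecules. Library measures were compared by exact permutation (scipy 1.17.1). The quality rule removed libraries under the D2 line's median total divided by 3, or over 4 scaled median absolute deviations low in genes with 10 or more counts or in median Spearman correlation with the line, or with the receptor ratio of the other line. Alternatives were RLE scaling, no filter, DESeq2 1.42.0, limma 3.58.1 with library weights, other sets of libraries, background share as a covariate, a replicate block and leaving out each library. Another 3 were chosen after seeing the data: without the 4 CS libraries of low correlation, without failing libraries and CS 1, and limma without failing libraries. The scripts were tested on simulated data.

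Named genes were the largest changes, 10 at most, among passing genes that had a regular symbol and averaged at least 1 on the log2 CPM scale, up to 4 of each gene list (passing first, then smallest p), and 11 fixed marker and early genes; 2 list symbols were not found. The libraries, lists and tests were chosen with earlier results of these data known.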

Additional observations from a re-analysis of the deposited data

Results flagged for a closer look

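In groups of 4 to 10 libraries, a single highest or lowest value was marked where its gap to the next exceeded Dixon's 95% critical value. Chance marks about 1 in 20 groups that are chosen without regard to their values. Most groups here were named genes, many chosen because they passed or had a small p, so that rate is no yardstick for them. Of 90 groups of values examined, 39 single values were marked. CPM values were compared among libraries above 1000000 counts.

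CS 4 stood far above the other CS libraries for Hoxc12 (321 CPM), Wfdc18 (656), Rpl5-ps1 (241), C1ql4 (254), Hoxc13 (339), Unc45bos (189), Hoxa7 (263), Ms4a14 (474), Cox7a1 (98.0), Fos (40.2), Pcsk1 (154), Kmt2b (719), Grin2c (169), Kcnd1 (94.4), Kcnk3 (247) and Limk1 (108 CPM). CS 3 stood above for Ly6a (155 CPM), Fosb (35.6), Klf2 (21.1), Slc1a2 (1539) and Olig2 (54.3 CPM). CS 1 stood above for Adora2a (469 CPM), Penk (2998), Arc (72.8), Npas4 (36.9) and Rpl35 (12.4 CPM). CS 5 did for Cldn5 (11.9 CPM) and CS 7 for mt-Co2 (30.4 CPM).

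Among the controls, SS 4 stood apart with a mitochondrial share of 1.77% of its counts, with high Ly6a (5.06 CPM), Slc1a2 (619), Mobp (67.0), Olig2 (8.25), Cldn5 (2.81) and mt-Co2 (9.57 CPM), and with low Npas4 (4.31 CPM). SS 9 had the lowest background share (5.37%) and the highest Drd2 (2177 CPM), and SS 3 the highest Ttr (188 CPM).

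The change from SS to CS differed between D2 and D1 nuclei by the interaction test (edgeR, adjusted p under the 0.05 threshold) for Hoxc12 (difference of log2 changes 7.21), Wfdc18 (6.72), Plcd3 (6.23), Rpl5-ps1 (4.94), C1ql4 (4.69), Hoxc13 (4.69), Unc45bos (4.55), Ly6a (4.20), Cox7a1 (4.07) and Hoxa7 (3.97). Plcd3 was highest in D2 CS 6, Ly6a in D2 CS 3 and the other genes in D2 CS 4, and with the failing libraries left out no gene passed the interaction test.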

How the results depend on the processing

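The count of 31 genes in CS minus SS, all higher, moved with nearly every choice. It was 6 with RLE scaling, 104 with no filter on low counts and 2 in DESeq2. It was 5 with background share as a covariate and also without the libraries under 1000000 counts. It was 20 without the libraries under 1000000 counts, 407 (405 higher, 2 lower) in the fit on all 75 libraries, and 0 with only CS and SS libraries (1169 at an unadjusted p under 0.05), without failing libraries (582), and, among alternatives chosen after seeing the data, without the 4 CS libraries of low correlation (328) or without failing libraries and CS 1 (1003). limma with library weights gave 4155 genes (822 higher, 3333 lower), and 4174 (1003 higher, 3171 lower) without failing libraries. Leaving out 1 library gave 6 to 200 genes (6 to 196 higher, 0 to 4 lower): 6 without CS 4, 27 without CS 6, 29 without CS 9, 84 without CS 3, 137 to 200 without each other CS library, and 8 to 20 without each SS library. For the interaction with D1, 35 became 7 with RLE scaling, 55 with no filter, 3 in DESeq2, and 0 in limma (1802 at an unadjusted p under 0.05) and without failing libraries (1545).

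No general pairing by replicate number was seen. The deviations of 7 same-numbered pairs correlated at -0.81 to 0.72, 2 of them over 0.1, and 1 CS library correlated best with its own number. The labels do not say what the numbers mark, so whether they pair libraries is not known. The replicate block gave 0 genes in CS minus SS (1375 at an unadjusted p under 0.05) and 0 in the interaction (2434). CC minus SC gave 0 in every alternative run.

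Where a value passed in either fit, direction turned for Hoxc12 without failing libraries (-0.15) and without the 4 libraries of low correlation (-0.048), Wfdc18 in limma without failing libraries (-0.014), Plcd3 in DESeq2 (-0.025), and Ms4a14 in DESeq2 (-0.13) and without CS 4 (-0.10, where leaving out 1 library gave up to 4.30). In limma, with and without failing libraries, it turned for Adora2a (-1.14, -1.18), Penk (-1.39, -1.37), Drd1 (-0.97, -1.01), Tac1 (-0.84, -0.88), Chrm4 (-0.99, -1.05) and Dusp6 (-0.52, -0.52). The difference in counts in genes over 100 kb went from 0.111 to -0.00569 percentage points without libraries under 1000000 counts and to -0.263 without failing libraries, and that in log10 total count from -0.75 to 0.0116 without failing libraries. The median over all genes moved from -0.03 to -0.13 with RLE scaling and to -0.16 with the replicate block, and in the interaction from -0.02 to -0.31 with RLE scaling and -0.21 in DESeq2. Of 1242 values of 39 named genes in the alternatives, 986 kept direction and side of the threshold, and 41 changed sign with neither value passing, among them Penk (-1.27) and Adora2a (-1.02) without failing libraries and CS 1. The causes were not tested.

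Depth limits CS 6 and CS 9 most, where 1 count is worth 38.03 and 50.1 CPM.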
